A study of Homo sapiens with 4 samples.

Results

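The enzymes that add methyl groups to histone lysines, those that remove them, and the related proteins that share their gene families were followed in the human cell line K562 after knockdown of PHF8. They were chosen by name alone from the deposited table of transcript abundance: gene names beginning with KDM, KMT, SETD, EHMT, SUV39H, SUV420H, EZH, NSD, WHSC1, SMYD or JMJD, or with PRDM or PHF followed by a digit, together with DOT1L, ASH1L, C14orf169 and MINA. PHF8 itself, PHF2, KDM7A and KDM1A were set aside. This gave 77 of the 11213 genes in the table. The name rule also takes in proteins that are not histone lysine methyltransferases or demethylases, such as the PHD-finger proteins, several PRDM factors, SETD3, which methylates a histidine of actin, and NSDHL, an enzyme of cholesterol synthesis that shares only the start of its name with the NSD enzymes.

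K562 is an established line from a patient with chronic myelogenous leukaemia and carries the BCR-ABL1 fusion. Both groups were made by lentiviral transduction in the presence of 5 µg/ml polybrene, with puromycin at 2 µg/ml from 72 hours. The 2 shControl libraries, with the genotype given as wild type, received a control hairpin and the 2 shPHF8 libraries, with the genotype given as PHF8 knockdown, a hairpin against PHF8. The series asks what PHF8 does in this leukaemia. Whether shPHF8 libraries 1 and 2 are replicates or carry different hairpins is unclear from the labels, which also name no separate cultures, so p-values measure only the spread between these libraries, which may be technical. Abundance is given in TPM, a unit corrected for transcript length that sums to the same total per library. Depth is therefore unknown and no counting error can be given.

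Histone lysines can carry several methyl groups, and what they mark depends on the site. Methylation of lysine 4, lysine 36 and lysine 79 of histone H3 is found at transcribed genes, whereas methylation of lysine 9 and lysine 27 of H3 marks silent chromatin and methylation of lysine 20 of histone H4 accompanies chromosome compaction and DNA repair. Most of the methyltransferases use a SET domain and take the methyl group from S-adenosylmethionine. Most of the demethylases are JmjC-domain oxygenases that need iron and 2-oxoglutarate, and the LSD1 family uses flavin instead. PHF8 is a JmjC demethylase of H3 lysine 9 and H4 lysine 20, so the genes described here are its relatives, its counterparts and the readers of the same marks.

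PHF8 was at 25.9 and 22.5 TPM in the controls and 6.06 and 6.42 TPM after knockdown, or 25.8% of control, giving a log2 fold change of -1.80 ± 0.16 (SE), and its limma Benjamini-Hochberg adjusted p was 0.0643. Over all genes 0 of 10972 tested passed limma at an adjusted p of 0.05, the smallest being 0.0554, and 22% had an unadjusted p under 0.05. Of 12 K562 and erythroid markers, all tested, 5 had higher and 0 lower values at an unadjusted p under 0.05, with summed levels of 8824 to 9395 TPM in the controls and 12983 to 13677 TPM after knockdown. Of 18 granulocyte and monocyte markers 7 were listed and all 7 had lower values at that p, with sums of 154 to 179 and 81.6 to 84.9 TPM; MPO, ELANE, CD14 and CSF1R were not among those listed. Of 8 megakaryocyte markers 4 were listed, with sums of 24.0 to 30.01 and 48.3 to 50.8 TPM; TUBB1 was higher (means of 12.1 and 35.1 TPM) and PLEK lower (3.89 and 0.102 TPM) at that p. Of 10 lymphocyte markers 2 were listed, with sums of 30.4 to 34.4 and 11.0 to 15.6 TPM. Of 10 stromal and endothelial markers 3 were listed, with sums of 500.3 to 507 and 303 to 306 TPM that were nearly all VIM (means of 492 and 301 TPM); COL1A2 was also lower at that p, and COL1A1 had a log2 fold change of 0.21. These markers differed between the same 2 groups as every result below, and their part in those results was not tested.

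The 77 genes together made up 0.350% and 0.341% of all TPM in the control libraries and 0.337% and 0.340% in the knockdown libraries, so their summed level was close in all 4 libraries. By mean TPM over the 4 libraries they ranged from 0.440 to 353 TPM with a median of 33.3 TPM, against a median of 28.3 TPM over all genes. There were 6 at 100 TPM or more: PHF19, EZH2, PHF10, KMT5A, PHF5A and PHF6. Another 11 lay below 10 TPM: JMJD4, KDM8, PHF7, PHF11, PRDM1, PRDM9, PRDM10, PRDM11, PRDM15, SETD7 and SETD9. Of these, PRDM1, a repressor of B-cell programmes, was listed at 0 in 3 libraries and at 1.76 TPM in shPHF8 replicate 1. PRDM1 was not tested. The other 76 had a mean of at least 1 TPM and entered the fit.

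None of the 76 passed limma with Benjamini-Hochberg adjustment over all genes, the smallest adjusted p being 0.0653. An unadjusted limma p under 0.05 was found for 15, or 19.7%, against 22% of all genes tested. Of these, 7 were higher (9.21% of the 76, against 9.9% of all genes) and 8 lower (10.5%, against 12.1%) in the knockdown libraries. Both knockdown libraries lay outside the range of the controls for 38 of the 76, or 50%, against 55.3% of all genes, with 18 above (background 26%) and 20 below (background 29.3%). Their median log2 fold change was -0.02 and that of all genes was -0.02. The shares were thus close to the background in each direction. The quartiles of the 76 were -0.22 and 0.21, and 2 of them, PRDM2 and SMYD2, differed by more than 2-fold, or 2.63% against 5.85% of all genes. In bulk RNA fewer cells of a type and less RNA per cell cannot be told apart, which holds for each value here.

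**Figure D1:**
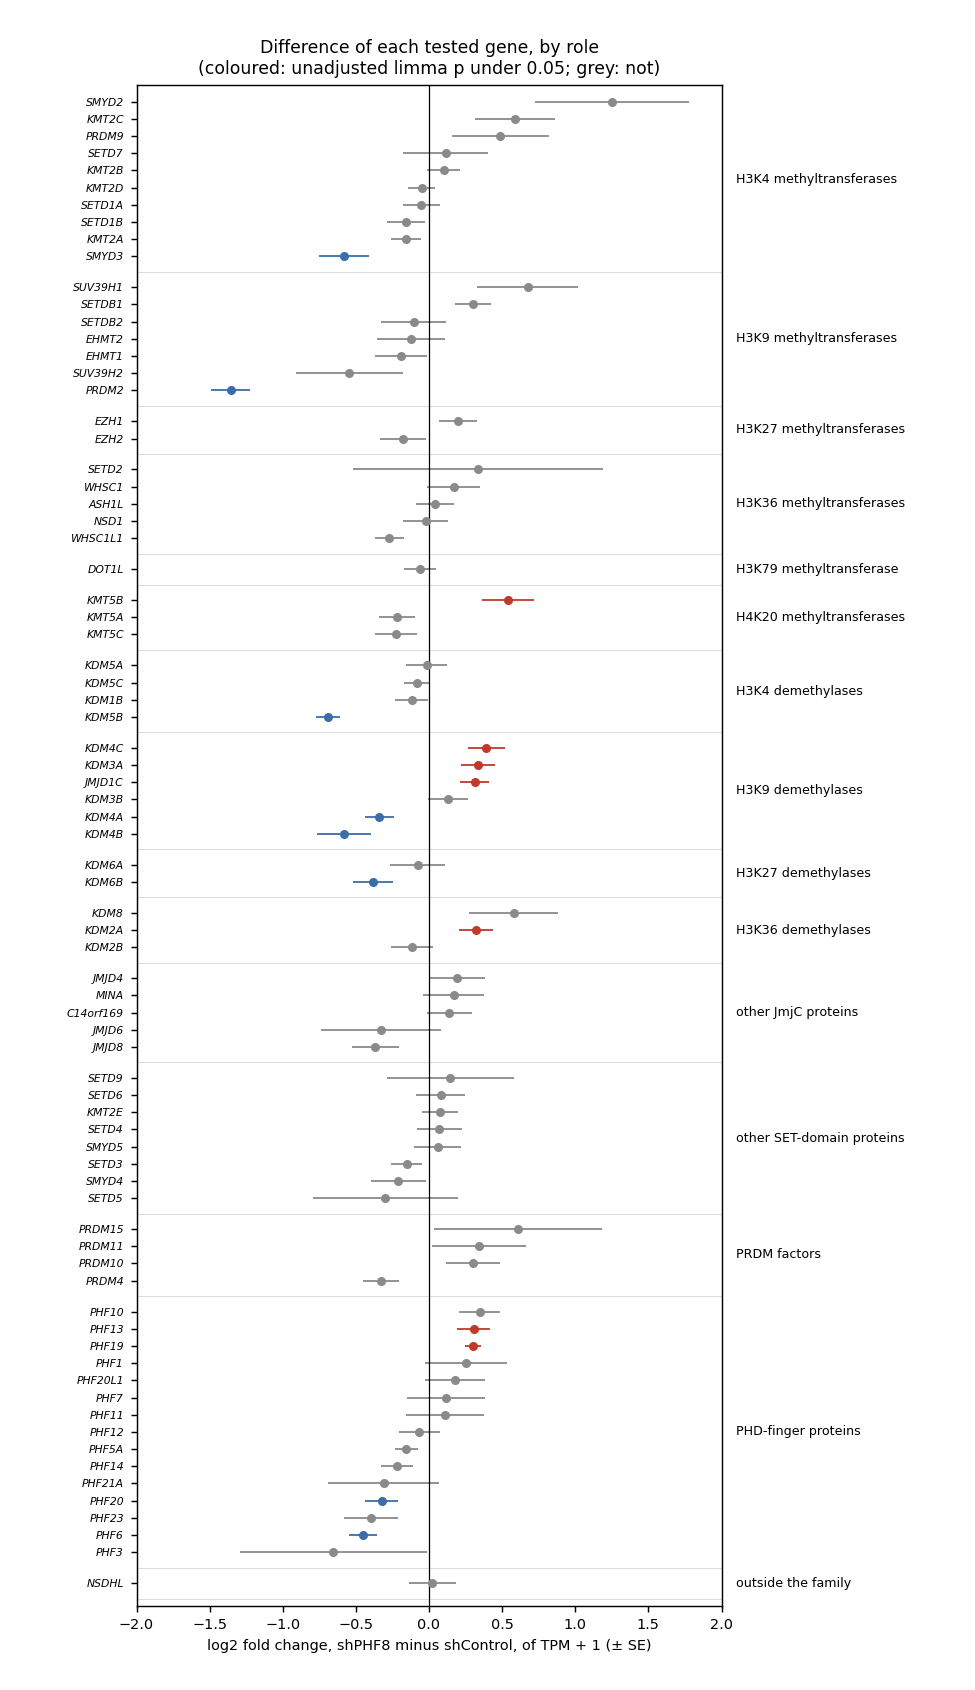
Each point is the log2 fold change of 1 of the 76 tested genes, shPHF8 minus shControl on log2(TPM + 1), with its SE as a bar, grouped by role. The 15 coloured points have an unadjusted limma p under 0.05, 7 higher in red and 8 lower in blue; PRDM2 lies farthest to the left at -1.36 and SMYD2, in grey, farthest to the right at 1.25.

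The demethylases, to which PHF8 belongs, are described first. Of 15 tested, 8 had an unadjusted limma p under 0.05, 4 higher and 4 lower, where 22% of all genes did. This count is uncertain. It was lower when any library was left out, and in proportion it fell further than the share over all genes. With the replicate number as a block in the fit, 2 of the 15 had such a p, against 17.8% of all genes. With a library left out, the log2 ranges were -0.71 to -0.67 for KDM5B, -0.41 to -0.27 for KDM4A, -0.76 to -0.40 for KDM4B and -0.50 to -0.27 for KDM6B. They were 0.32 to 0.46 for KDM4C, 0.25 to 0.42 for KDM3A, 0.25 to 0.37 for JMJD1C and 0.29 to 0.35 for KDM2A. The RefSeq promoter windows of GRCh38.p14, from 250 bases before to 50 bases after the annotated start, are printed for the 4 of these 8 whose most abundant listed transcript starts inside the window. KDM5B lies on the minus strand at chr1:202808372-202808671, KDM4A on the plus strand at chr1:43649899-43650198, KDM4B on the plus strand at chr19:4968863-4969162 and KDM3A on the plus strand at chr2:86441121-86441420. Capitals mark matches on either strand to the GC box GGGCGG, the CCAAT box CCAAT or the E box CACGTG, and neighbouring matches can overlap.
KDM5B: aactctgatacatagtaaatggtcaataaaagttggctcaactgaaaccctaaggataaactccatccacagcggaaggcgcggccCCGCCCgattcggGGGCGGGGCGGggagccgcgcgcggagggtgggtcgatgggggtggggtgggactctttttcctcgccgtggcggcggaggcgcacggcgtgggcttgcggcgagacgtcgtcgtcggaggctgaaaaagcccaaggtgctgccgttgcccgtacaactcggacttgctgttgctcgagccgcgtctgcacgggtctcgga
KDM4A: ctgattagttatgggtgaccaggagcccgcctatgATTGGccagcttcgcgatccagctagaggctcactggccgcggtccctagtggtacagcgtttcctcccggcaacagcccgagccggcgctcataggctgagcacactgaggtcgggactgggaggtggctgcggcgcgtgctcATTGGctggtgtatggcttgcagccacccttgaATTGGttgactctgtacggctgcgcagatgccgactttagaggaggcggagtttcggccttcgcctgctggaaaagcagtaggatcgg
KDM4B: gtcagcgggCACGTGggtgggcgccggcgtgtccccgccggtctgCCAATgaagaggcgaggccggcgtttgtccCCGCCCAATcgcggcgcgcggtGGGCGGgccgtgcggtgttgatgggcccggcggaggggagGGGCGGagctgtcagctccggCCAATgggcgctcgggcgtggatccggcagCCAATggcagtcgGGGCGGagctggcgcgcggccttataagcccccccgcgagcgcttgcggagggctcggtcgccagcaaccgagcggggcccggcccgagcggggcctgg
KDM3A: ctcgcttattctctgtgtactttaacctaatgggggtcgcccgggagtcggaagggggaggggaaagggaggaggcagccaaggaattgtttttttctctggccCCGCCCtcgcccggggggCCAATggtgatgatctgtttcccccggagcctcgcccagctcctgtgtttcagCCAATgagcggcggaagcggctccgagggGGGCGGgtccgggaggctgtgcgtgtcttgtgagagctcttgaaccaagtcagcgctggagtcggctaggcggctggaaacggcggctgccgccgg
KDM5B, lower after knockdown, held 34 CpG, 3 GC boxes and no other match, and KDM4A, also lower, held 21 CpG and 3 CCAAT boxes. KDM4B, lower as well, held 43 CpG, 4 GC boxes, 4 CCAAT boxes and 1 E box, whereas KDM3A, with higher values, held 23 CpG, 2 GC boxes and 2 CCAAT boxes. A GC box was found in 73.8% of the 65 windows that could be matched to the 77 genes and in 71.8% of the windows of 8515 tested genes, and a CCAAT box in 36.9% and 37.7%. KDM3A-201, the most abundant KDM3A transcript, starts at -223 bases relative to the RefSeq start, so most of the printed KDM3A window lies after its start. In shControl replicate 1 KDM3A-002 was more abundant, with 66.5% of KDM3A TPM, and it starts 90 bases downstream of the RefSeq start. A match is a description of these letters, not a site.

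Among demethylases of H3 lysine 9, the site shared with PHF8, 5 of the 6 tested had an unadjusted p under 0.05, 3 higher and 2 lower, against 22% of all genes. Fewer of the 6 did when any library was left out, and in proportion this fall was larger than that of the share over all genes. With the replicate number as a block in the fit, 1 of the 6 had such a p, against 17.8% of all genes. The median log2 fold change was 0.22, and 0.11 to 0.30 when a library was left out. The KDM4 enzymes act on trimethylated lysine 9 and lysine 36, and the 3 listed did not go the same way. KDM4A was at 81.3 and 73.6 TPM in the controls and 62.1 and 59.9 TPM after knockdown, a log2 fold change of -0.34 ± 0.10 (SE). KDM4B was at 18.4 and 17.7 TPM in the controls and 10.2 and 13.4 TPM after knockdown, 65.6% of control, with a fold change of -0.58 ± 0.18 on the same scale. KDM4C, in contrast, was at 23.2 and 20.9 TPM in the controls and 30.2 and 28.3 TPM after knockdown, a log2 fold change of 0.39 ± 0.13. The groups did not overlap for any of these 3 genes, nor did they for 55.3% of all genes. KDM4A was 3.51 and 3.52 times as abundant as KDM4C in the controls but 2.05 and 2.12 times after knockdown. The limma Benjamini-Hochberg adjusted p-values of KDM4A, KDM4B and KDM4C were 0.176, 0.194 and 0.198.

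The KDM3 enzymes act on mono- and dimethylated lysine 9. KDM3A was at 35.5 and 31.5 TPM in the controls and 42.8 and 42.1 TPM after knockdown, a log2 fold change of 0.33 ± 0.12 (SE). JMJD1C, a member of the same subfamily with weaker or debated demethylase activity, was at 54.3 and 53.1 TPM in the controls and 64.1 and 69.9 TPM after knockdown, a log2 fold change of 0.31 ± 0.10. Both knockdown libraries were above both controls for each gene, as for 26% of all genes. The limma Benjamini-Hochberg adjusted p-values were 0.213 and 0.190. KDM3B was at 59.9 and 59.5 TPM in the controls and at 58.7 and 72.9 TPM after knockdown, so that only shPHF8 replicate 2 stood above the controls and shPHF8 replicate 1 lay just below them (log2 fold change 0.13 ± 0.14). For comparison, the relatives set aside by the rule are given too. KDM7A was at 23.4 and 17.8 TPM in the controls and 14.6 and 15.3 TPM after knockdown. KDM1A was at 229 and 239 TPM in the controls and 227 and 243 TPM after knockdown. PHF2 was at 23.4 and 21.8 TPM in the controls and 22.5 and 22.9 TPM after knockdown. KDM7A, KDM1A and PHF2 had no unadjusted limma p under 0.05, and the counts of demethylases given here leave them out.

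Demethylases of H3 lysine 4 held the demethylase with the smallest p, KDM5B, and 3 relatives near their control level. KDM5B (ENSG00000117139), a repressor highly expressed in many tumours, was at 98.5 and 101 TPM in the controls and 62.6 and 60.5 TPM after knockdown, which is 61.6% of control. The knockdown libraries lay far below the controls and close to each other, with a log2 fold change of -0.69 ± 0.08 (SE), a 95% confidence interval of -0.92 to -0.46 and a limma Benjamini-Hochberg adjusted p of 0.0703. Its paralogue KDM5C was at 92.5 and 97.1 TPM in the controls and 86.2 and 93.3 TPM after knockdown, and the flavin-dependent KDM1B at 108 and 91.5 TPM in the controls and 92.1 and 91.2 TPM after knockdown, and for both genes the groups overlapped. KDM5A, a further paralogue, was at 30.1 and 25.3 TPM in the controls and 27.6 and 26.9 TPM after knockdown. KDM5B was 3.27 and 4.01 times as abundant as KDM5A in the controls and 2.27 and 2.25 times after knockdown, whereas the ratio of KDM5C to KDM5A, at 3.08 and 3.84 and then 3.12 and 3.47, overlapped.

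Of the 2 demethylases of H3 lysine 27, KDM6B, the inducible enzyme of the pair, was at 33.2 and 28.1 TPM in the controls and 23.1 and 23.2 TPM after knockdown, below the controls in both libraries (log2 fold change -0.38 ± 0.14 SE, limma Benjamini-Hochberg adjusted p = 0.223). KDM6A, a constant component of the KMT2C and KMT2D complexes, was at 54.3 and 45.0 TPM in the controls and 53.8 and 40.8 TPM after knockdown, and its groups overlapped. Of the 3 genes grouped as demethylases of H3 lysine 36, KDM2A, which binds unmethylated CpG through a zinc finger, was at 20.7 and 21.7 TPM in the controls and 26.7 and 26.7 TPM after knockdown, a log2 fold change of 0.32 ± 0.12 with an adjusted p of 0.227 by limma with Benjamini-Hochberg adjustment. KDM2A-010 held 74.1% and 73.2% of KDM2A TPM in the controls and 68.1% and 76.8% after knockdown. It has 723 codons, against 1162 for KDM2A-002, and starts 120784 bases downstream of the RefSeq start. KDM2A-002 was at 4.09 and 3.76 TPM in the controls and 5.18 and 4.61 TPM after knockdown. KDM2B, the KDM2A paralogue, recruits a Polycomb complex to CpG islands. It was at 28.96 and 35.0 TPM in the controls and 29.2 and 29.3 TPM after knockdown. Both knockdown libraries of KDM2B thus lay between the controls. KDM8, whose histone activity is disputed, was at 2.82 and 5.06 TPM in the controls and 6.13 and 6.23 TPM after knockdown and is among the least abundant of the 77. Of 5 other JmjC proteins 0 had an unadjusted limma p under 0.05, against 22% of all genes. In this group JMJD6, a lysyl hydroxylase, was at 27.02 and 54.3 TPM in the controls and 24.6 and 37.6 TPM after knockdown, so that the controls differed from each other more than the groups did, and MINA, a ribosomal oxygenase, was at 25.1 and 24.2 TPM in the controls and 23.3 and 33.4 TPM after knockdown. JMJD8 was below both controls, at 23.2 and 26.0 TPM in the controls and 17.1 and 20.7 TPM after knockdown (log2 fold change -0.37 ± 0.16), whereas C14orf169, now called RIOX1, and JMJD4 had log2 fold changes of 0.14 ± 0.15 and 0.19 ± 0.19.

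**Figure D2:**
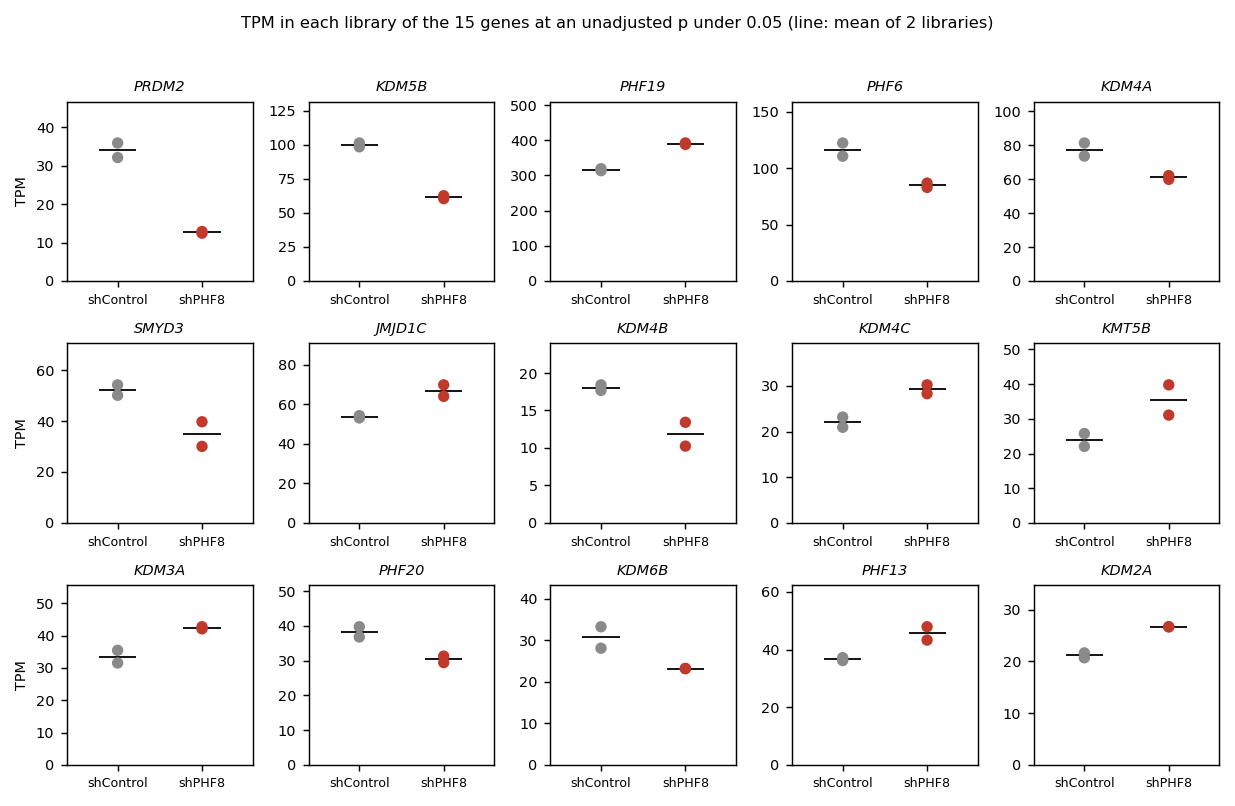
TPM on the vertical axis in each library for the 15 genes at an unadjusted limma p under 0.05, with shControl libraries in grey, shPHF8 libraries in red and a line at the mean of 2 libraries. The vertical axis of each panel starts at 0. The groups do not overlap in any panel, which the choice of genes by this p made likely. They do not overlap for 55.3% of all genes either. The widest gap relative to level is in PRDM2.

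The genes grouped as methyltransferases of H3 lysine 9 held the one with the smallest p of all 76. PRDM2, also called RIZ, is known for a long product with a PR (SET-related) domain that methylates lysine 9 and a shorter one without it. No listed PRDM2 transcript has the 1718 codons of the longest one annotated. PRDM2-003 and PRDM2-004, with 1481 codons each, start 49215 and 49227 bases downstream of the RefSeq start. PRDM2-003 held 60.3% and 49.7% of PRDM2 TPM in the controls and PRDM2-004 33.8% and 36.1%. The lower PRDM2 sum thus lay mostly in these shorter forms, and whether they encode the PR domain was not tested. PRDM2 (ENSG00000116731) was at 32.1 and 35.9 TPM in the controls and 12.4 and 12.9 TPM after knockdown, or 37.2% of control, and the knockdown libraries were close to each other. Its difference on the log2 scale was -1.36 ± 0.13 (SE; 95% confidence interval -1.72 to -0.99), at a limma Benjamini-Hochberg adjusted p of 0.0653. The other 6 had no unadjusted p under 0.05, which 22% of all genes had. SETDB1, which silences endogenous retroviruses with TRIM28, was at 49.8 and 45.7 TPM in the controls and 63.5 and 54.6 TPM after knockdown, above both controls (log2 fold change 0.30 ± 0.12), while its relative SETDB2 was less abundant, at 13.7 and 17.0 TPM in the controls and 12.1 and 16.4 TPM after knockdown, and overlapped.

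The paralogues SUV39H1 and SUV39H2, which trimethylate lysine 9 at pericentric heterochromatin, differed more between libraries of a group than between groups. SUV39H2 was at 61.1 and 60.8 TPM in the controls and 28.8 and 59.5 TPM after knockdown, so most of its lower mean comes from shPHF8 replicate 1. SUV39H1 was at 21.8 and 43.3 TPM in the controls and 49.6 and 49.8 TPM after knockdown, so most of its higher mean comes from shControl replicate 1. SUV39H2 was 2.80 and 1.41 times as abundant as SUV39H1 in the controls and 0.581 and 1.196 times after knockdown. EHMT1 and EHMT2, the partners that form the G9a/GLP dimer, kept a ratio of EHMT2 to EHMT1 of 1.01 and 0.998 in the controls and 1.13 and 0.986 after knockdown.

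Methyltransferases of H4 lysine 20, a further site of PHF8, did not all go one way. KMT5B, which di- and trimethylates this lysine, was at 25.8 and 22.1 TPM in the controls and 39.8 and 31.1 TPM after knockdown, a difference of 0.54 ± 0.18 (SE) on the log2 scale and a limma Benjamini-Hochberg adjusted p of 0.202. KMT5A, the monomethylating enzyme and the most abundant of the 3, was at 149 and 123 TPM in the controls and 112 and 120.5 TPM after knockdown, and KMT5C, the relative of KMT5B, at 31.6 and 27.01 TPM in the controls and 23.5 and 26.3 TPM after knockdown. Both were below their controls in both libraries without an unadjusted p under 0.05 (log2 fold changes of -0.22 ± 0.12 and -0.23 ± 0.15). KMT5C and KMT5B thus went from near parity, with ratios of 1.23 and 1.22, to 0.590 and 0.847, and the ratio of KMT5A to KMT5B from 5.80 and 5.58 to 2.83 and 3.88.

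Of the 10 methyltransferases of H3 lysine 4, 1 had an unadjusted limma p under 0.05, against 22% of all genes. This was SMYD3, for which cytoplasmic substrates are also described, at 50.1 and 54.2 TPM in the controls and 30.1 and 39.7 TPM after knockdown (66.9% of control, log2 fold change -0.58 ± 0.17, limma Benjamini-Hochberg adjusted p = 0.178). SMYD3-013, with 147 codons against 428 for SMYD3-001, was at 34.3 and 30.6 TPM in the controls and 14.4 and 22.6 TPM after knockdown. SMYD3-001 was at 13.3 and 22.4 TPM in the controls and 14.3 and 14.2 TPM after knockdown, and its groups overlapped. The short transcript thus accounted for most of the lower SMYD3 sum. The large KMT2 enzymes differed among themselves. KMT2D, which marks enhancers, was at 60.5 and 62.8 TPM in the controls and 60.8 and 58.3 TPM after knockdown, and its groups overlapped. KMT2A, the MLL gene rearranged in acute leukaemia, was at 60.5 and 58.8 TPM in the controls and 50.8 and 56.2 TPM after knockdown, slightly below both controls. KMT2C, the paralogue of KMT2D, was at 39.7 and 25.6 TPM in the controls and 55.9 and 42.0 TPM after knockdown, above both controls but with wide spread (log2 fold change 0.59 ± 0.27 SE). KMT2B, SETD1A and SETD1B, catalytic subunits of the other complexes of this kind, had log2 fold changes of 0.10 ± 0.11, -0.05 ± 0.13 and -0.15 ± 0.13. SMYD2, which also methylates p53, was at 11.2 and 23.3 TPM in the controls and 27.01 and 59.0 TPM after knockdown. Both knockdown libraries stood above both controls, but replicate 2 was far above replicate 1 in each group, and the log2 fold change of 1.25 ± 0.53 (SE) had an unadjusted limma p of 0.0738.

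For H3 lysine 27, lysine 36 and lysine 79, 0 of 8 methyltransferases had an unadjusted limma p under 0.05, against 22% of all genes. EZH2, the catalytic subunit of Polycomb repressive complex 2 in dividing cells, was at 206 and 163 TPM in the controls and 149 and 175 TPM after knockdown, and its paralogue EZH1 at 28.6 and 32.7 TPM in the controls and 33.5 and 36.9 TPM after knockdown. EZH2 was 7.21 and 4.98 times as abundant as EZH1 in the controls and 4.44 and 4.75 times after knockdown. WHSC1L1, now called NSD3, was at 90.3 and 80.2 TPM in the controls and 71.5 and 69.2 TPM after knockdown, below both controls (log2 fold change -0.27 ± 0.10), and WHSC1, now called NSD2 and known from the translocation of multiple myeloma, was at 68.6 and 49.6 TPM in the controls and 64.2 and 67.1 TPM after knockdown. NSD1 and ASH1L, further enzymes of lysine 36, had log2 fold changes of -0.02 ± 0.15 and 0.04 ± 0.13 (SE), and their groups overlapped. DOT1L, the only known enzyme of lysine 79, was at 38.9 and 42.1 TPM in the controls and 37.8 and 39.6 TPM after knockdown, and its groups overlapped.

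The remaining groups are mostly readers. Of 15 PHD-finger proteins 2 had higher and 2 lower values at an unadjusted limma p under 0.05, where 9.9% and 12.1% of all genes did. PHF19 (ENSG00000119403), a Polycomb-associated reader of methylated H3 lysine 36 and the most abundant of the 77 genes, was at 319 and 314 TPM in the controls and 392.4 and 388 TPM after knockdown, a difference of 0.30 ± 0.06 (SE) on the log2 scale and a limma Benjamini-Hochberg adjusted p of 0.103. PHF6 (ENSG00000156531), mutated in T-cell leukaemia, was at 122 and 111 TPM in the controls and 83.0 and 86.8 TPM after knockdown, a log2 fold change of -0.45 ± 0.09 with an adjusted p of 0.116 in the same limma fit with Benjamini-Hochberg adjustment. For both genes the libraries of a group lay closer to each other than to either library of the other group.

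PHF20, a subunit of an acetyltransferase complex, was at 36.8 and 39.8 TPM in the controls and 31.3 and 29.4 TPM after knockdown (log2 fold change -0.32 ± 0.11), and PHF13, a reader of trimethylated H3 lysine 4, at 37.2 and 36.2 TPM in the controls and 47.9 and 43.3 TPM after knockdown (log2 fold change 0.30 ± 0.11). Their limma Benjamini-Hochberg adjusted p-values were 0.216 and 0.224. PHF10, a subunit of the PBAF remodelling complex, was at 127 and 103 TPM in the controls and 138 and 154 TPM after knockdown, with both knockdown libraries above the controls but the controls themselves far apart. PHF5A, a splicing factor of the U2 particle, was slightly below both controls, at 109.9 and 111 TPM in the controls and 102 and 96.6 TPM after knockdown. PHF14 and PHF23 were also below both controls, with log2 fold changes of -0.22 ± 0.11 and -0.40 ± 0.18, and PHF1, PHF7, PHF11, PHF12 and PHF20L1 overlapped between the groups.

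Of 4 tested PRDM factors and 8 other SET-domain proteins 0 had an unadjusted limma p under 0.05, against 22% of all genes. PRDM4 was at 32.5 and 31.6 TPM in the controls and 26.7 and 24.0 TPM after knockdown (log2 fold change -0.33 ± 0.12) and PRDM10 at 7.21 and 8.27 TPM in the controls and 8.98 and 10.6 TPM after knockdown. KMT2E, which lacks clear methyltransferase activity, was at 60.7 and 67.9 TPM in the controls and 72.8 and 63.1 TPM after knockdown, SETD5 at 46.9 and 70.5 TPM in the controls and 73.1 and 29.6 TPM after knockdown, and NSDHL at 60.2 and 76.6 TPM in the controls and 64.2 and 74.1 TPM after knockdown. The groups overlapped for these 3 genes. SETD3 was below both controls, at 48.3 and 50.8 TPM in the controls and 46.6 and 42.5 TPM after knockdown, whereas SETD4, SETD6, SMYD4, SMYD5 and SETD9 overlapped between the groups. Their log2 fold changes ran from -0.21 for SMYD4 to 0.14 for SETD9.

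On the log2(TPM + 1) scale, libraries of the same group differed by more than 2-fold for 8 of the 76 genes. Between the 2 controls these were PHF3, PRDM15 and SETD2, or 3.95% against 5.93% of all genes, and between the 2 knockdown libraries PHF21A, SETD2, SETD5, SETD9, SMYD2 and SUV39H2, or 7.89% against 5.48%. JMJD6 and SMYD2 lay just inside that limit between the controls on this scale, and just outside it in TPM. SETD2, the main enzyme for trimethylation of H3 lysine 36, was at 41.6 and 9.86 TPM in the controls and 43.7 and 15.5 TPM after knockdown, so that the 2 libraries numbered 1 were high and the 2 numbered 2 low. PHF3, a regulator of transcription elongation, was at 19.1 and 68.2 TPM in the controls and 19.9 and 25.9 TPM after knockdown, with shControl replicate 2 alone above the rest. None of the 8 had an unadjusted limma p under 0.05. The test measures differences against this same spread, so such a p was unlikely from the start.

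**Figure D3:**
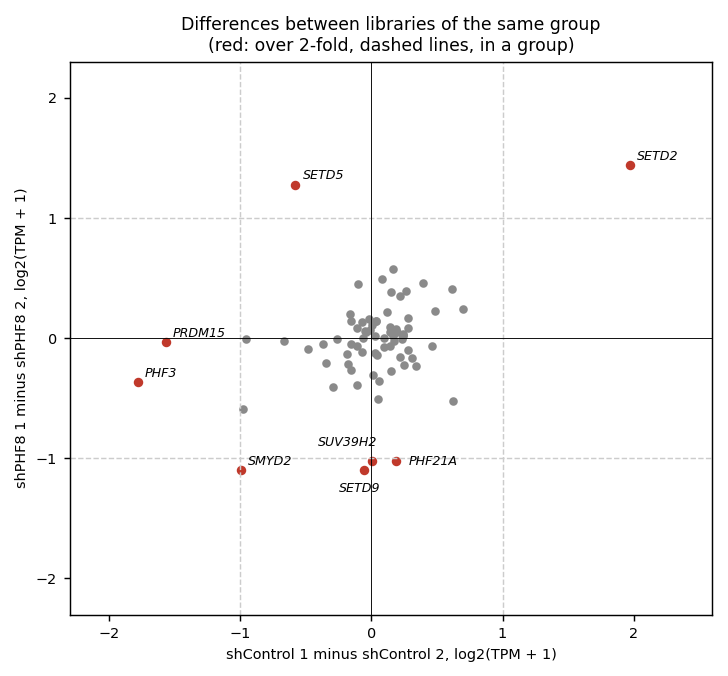
Differences in log2(TPM + 1) between the 2 control libraries (horizontal) and between the 2 knockdown libraries (vertical), 1 point for each of the 76 genes. The 8 red points differ by more than 2-fold within a group; SETD2 does so in both groups, in the same direction, and the grey points lie within 2-fold on both axes.

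The table lists transcripts, and the 77 genes hold 259 of them, of which 244 had a mean of at least 1 TPM. Of these 20 had an unadjusted limma p under 0.05, or 8.2% against 10.3% of all transcripts tested, with 6 higher (background 4.91%) and 14 lower (background 5.38%). None passed limma with Benjamini-Hochberg adjustment (smallest adjusted p = 0.122), a threshold that few simulated transcript changes passed, and over all transcripts 1 of 30266 did, or 0.0033%. The 20 belonged to 15 genes, of which 9 had no unadjusted p under 0.05 as sums. The libraries of the groups did not overlap for 41.8% of the 244, against 43.2% of all transcripts.

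PRDM2-003, which codes for 1481 codons where the longest PRDM2 transcript of GENCODE 29 has 1718, was at 19.4 and 17.8 TPM in the controls and 7.03 and 3.92 TPM after knockdown (log2 fold change -1.64 ± 0.34 SE). It starts 49215 bases downstream of the RefSeq start of the gene, so its own start is outside the window of that gene, which is not printed here. For KDM5B the most abundant transcript, KDM5B-003, was at 63.5 and 70.0 TPM in the controls and 41.3 and 37.6 TPM after knockdown, so it carried most of the difference in the sum. PHF19-003, with 207 codons against 580 for PHF19-001, was at 168.7 and 173 TPM in the controls and 241 and 239 TPM after knockdown (log2 fold change 0.49 ± 0.06 SE). PHF19-001 was at 127 and 125 TPM in the controls and 141 and 138 TPM after knockdown, so the short form accounted for most of the higher PHF19 sum.

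Among the 10 transcripts with the smallest p were several whose gene sum had no unadjusted p under 0.05. PHF23-005 was at 22.5 and 23.5 TPM in the controls and was listed at 0 and 0.574 TPM after knockdown, while PHF23-002 was listed at 0 in 3 libraries and at 28.7 TPM in shPHF8 replicate 2. EHMT2-001, from the gene of G9a, was at 21.8 and 19.4 TPM in the controls and 1.72 and 0 TPM after knockdown, although the EHMT2 sum was at 40.5 and 36.1 TPM in the controls and 43.0 and 28.5 TPM after knockdown. DOT1L-008 was at 5.96 and 6.50 TPM in the controls and 1.31 and 1.94 TPM after knockdown, a small part of that gene. EZH1-001 was at 0.170 and 0 TPM in the controls and 3.15 and 2.33 TPM after knockdown, and PHF3-003 was at 7.69 and 2.57 TPM and then listed at 0 in both knockdown libraries. Of genes at an unadjusted limma p under 0.05, KDM4B-201 was at 10.4 and 11.1 TPM in the controls and 3.36 and 3.82 TPM after knockdown. This was in the direction of the KDM4B sum. KDM4B-001 went against that sum, at 4.33 and 3.36 TPM in the controls and 5.52 and 7.11 TPM after knockdown. KMT5B-010 was at 2.65 and 3.30 TPM in the controls and 0.295 and 0.0271 TPM after knockdown, against the direction of the KMT5B sum. KMT5B-003, also with 393 codons, was at 2.47 and 1.88 TPM in the controls and 16.6 and 6.91 TPM after knockdown. It accounted for most of the higher KMT5B sum. KMT5B-201, with 885 codons, was at 8.78 and 8.54 TPM in the controls and 9.34 and 11.9 TPM after knockdown.

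How reads shared by isoforms were divided, and its part in these transcript values, was not tested. WHSC1-201 was at 57.6 TPM in shControl replicate 1 and listed at 0 in the other 3 libraries, in which WHSC1-011 was at 26.7, 30.5 and 31.7 TPM. Of the 244 transcripts 17, or 6.97%, were under 1 TPM in 1 library and at least 10 TPM in the other library of the same group, against 4.66% of all transcripts. Among gene sums the same was seen for 0 of the 76, against 0.201% of all genes.

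**Figure D4:**
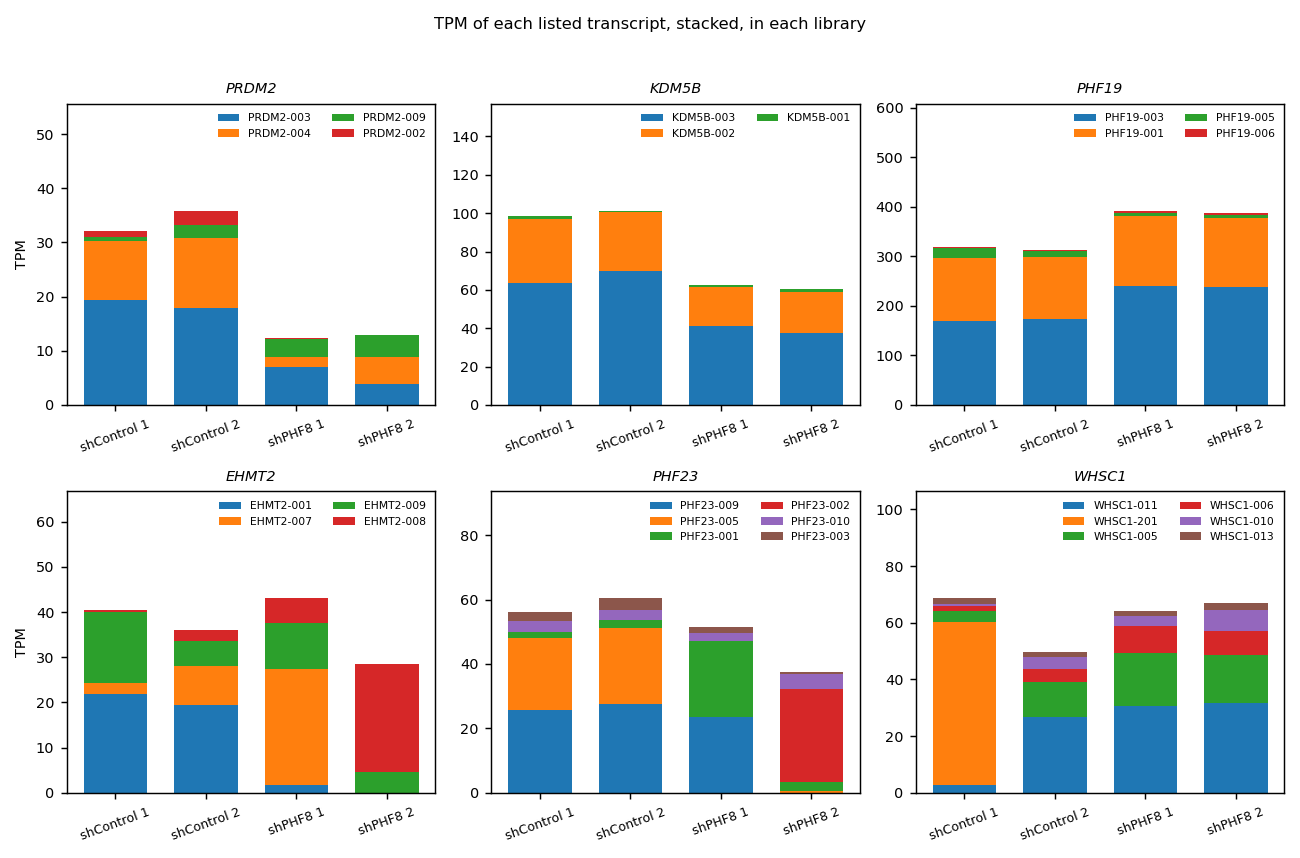
Stacked bars show the TPM of each listed transcript in each of the 4 libraries for PRDM2, KDM5B, PHF19, EHMT2, PHF23 and WHSC1. PRDM2 and KDM5B are lower in both knockdown libraries, and WHSC1 shows 1 transcript in shControl replicate 1 where the other libraries show others.

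Partners of these enzymes and suppliers of their cosubstrates were counted in the same fit. Of 75 tested, 9 had higher and 6 lower values at an unadjusted limma p under 0.05, or 20% against 22% of all genes, and 0 passed adjustment. In the COMPASS complexes, which hold the H3 lysine 4 methyltransferases, 2 of 12 were higher and 0 lower at that p. The core subunit ASH2L was at 80.4 and 66.0 TPM in the controls and 168 and 158 TPM after knockdown, a difference of 1.15 ± 0.13 (SE) on the log2 scale and a limma Benjamini-Hochberg adjusted p of 0.0696. Both knockdown libraries were far above both controls. The coactivator subunit NCOA6 was at 32.1 and 33.7 TPM in the controls and 45.6 and 40.1 TPM after knockdown. Among 7 partners of EZH2 in Polycomb repressive complex 2, 2 were higher and 1 lower: JARID2, which guides the complex, was at 42.2 and 42.1 TPM in the controls and 51.5 and 53.7 TPM after knockdown, MTF2 at 28.7 and 44.1 TPM in the controls and 74.6 and 56.4 TPM after knockdown, and the core subunit EED at 72.5 and 71.6 TPM in the controls and 49.7 and 59.8 TPM after knockdown.

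Of 10 genes of methyl donor supply 1 was higher and 4 lower at that p, against 9.9% and 12.1% of all genes. The higher gene was MTHFD1, of the folate cycle, at 148 and 152 TPM in the controls and 182 and 192 TPM after knockdown. AHCY, which clears the S-adenosylhomocysteine that methyltransferases release, was at 274 and 264 TPM in the controls and 209 and 203 TPM after knockdown, and PHGDH, the entry to serine synthesis, at 168 and 132 TPM in the controls and 92.6 and 94.8 TPM after knockdown. MAT2A, which makes S-adenosylmethionine, and SHMT2 were the other 2 lower genes, with log2 fold changes of -0.22 ± 0.05 and -0.37 ± 0.10 (SE). Among 9 genes of 2-oxoglutarate supply 2 were higher and 1 lower, and all 3 encode isocitrate dehydrogenases. IDH3G was higher, at 70.9 and 76.6 TPM in the controls and 125 and 100.4 TPM after knockdown, as was IDH2, at 65.3 and 64.7 TPM in the controls and 83.4 and 80.8 TPM after knockdown, whereas IDH1, the cytosolic enzyme, was lower, at 314 and 256 TPM in the controls and 206 and 208 TPM after knockdown. Of the DOT1L and elongation partners 1 of 6 was higher, AFF4, at 34.4 and 26.9 TPM in the controls and 51.6 and 56.2 TPM after knockdown, while AFF1 was at 45.3 and 22.7 TPM in the controls and 56.8 and 43.4 TPM after knockdown. Of the protein arginine methyltransferases 1 of 9 was higher, PRMT2, at 37.9 and 28.6 TPM in the controls and 67.1 and 45.1 TPM after knockdown, while PRMT9 was at 9.29 and 8.49 TPM in the controls and 13.8 and 9.03 TPM after knockdown. An unadjusted limma p under 0.05 was found for 0 of 9 H3 lysine 9 readers and 0 of 8 CoREST partners of KDM1A. It was also found for 0 of 5 H4 lysine 20 readers, and the share over all genes was 22%. The smallest p in these lists belonged to MPHOSPH8 and ATF7IP, with log2 fold changes of -0.13 ± 0.09 and 0.15 ± 0.14 (SE), to RCOR1 and RCOR2, with -0.22 ± 0.09 and -0.54 ± 0.23, and to L3MBTL1 and TP53BP1, with 0.52 ± 0.25 and 0.33 ± 0.16.

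The count of 15 was lower when any library was left out, as was the share over all genes. Leaving out shControl replicate 1 gave 9 and leaving out its replicate 2 gave 11, while leaving out shPHF8 replicate 1 gave 6 and its replicate 2 gave 9, where 20.1%, 17.1%, 14.4% and 13.6% of all genes had an unadjusted limma p under 0.05. The 4 genes that kept such a p under all 11 alternatives were PRDM2, KDM5B, PHF19 and PHF6, and the other 11 kept it under 4 to 8 of them. Exons of 15 of the 77 genes overlap those of another protein-coding gene in GENCODE 29. For 13 that gene is on the opposite strand, and the strandedness of the libraries is not given in the sources used here, so reads of such pairs may not be separable. For KDM4A and KMT2A it is on the same strand and is not in the table. PRDM9 has a close copy in PRDM7, and KMT2C has copies of part of its sequence elsewhere, so their levels are uncertain.

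**Figure D5:**
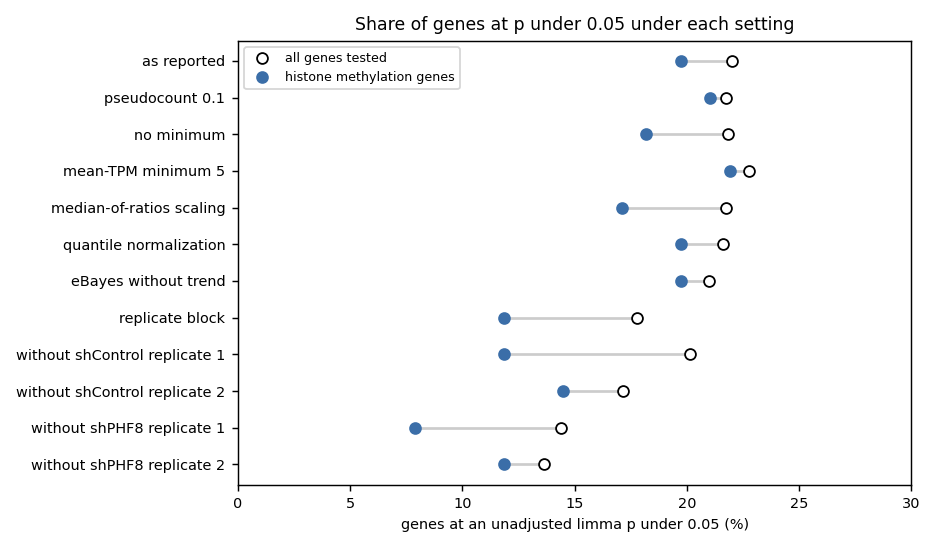
Percentage of genes at an unadjusted limma p under 0.05 (horizontal) for the 76 histone methylation genes in blue and all genes tested in open circles, under the reported settings and each of the 11 alternatives. With all settings as reported the values are 19.7% and 22%, and both are lower when a library is left out.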

How the data were processed

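RNA from 4 K562 libraries, 2 shControl and 2 shPHF8 by their titles, was measured. The authors deposited 1 table of TPM per transcript and library, per the file headers; HISAT2 2.0.4, StringTie 1.2.3 and build hg19 stand in the submitters' processing notes, and the role of each tool is not given in the sources used here. A further 4 deposited signal columns, without a unit in the file headers, were not used. TPM are shares: an abundant gene that rises lowers all others, and reads shared by isoforms or near-identical genes may be divided in several ways.

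TPM were summed per gene name and taken as log2(TPM + 1), which understates differences of low genes. The 10972 genes and 30266 transcripts with a mean of at least 1 TPM were compared by limma 3.58.1 (R 4.3.3; empirical Bayes with trend, two-sided, Benjamini-Hochberg threshold 0.05; 2 residual degrees of freedom, prior 2.16 for genes). On simulated data for this comparison with 10874 genes, log2 changes of 1, 2 and 3 were called by limma in 33%, 64.6% and 84% of cases. With 28999 transcripts the shares were 0.152%, 4.46% and 10.6%. Each run changed a small part of the features, none at the lowest levels, and left the rest unchanged. Of the unchanged genes 5.85% had an unadjusted limma p under 0.05, against 22% of the real genes. The simulation thus differs from these data, and its shares may not hold for them. GENCODE 29, on GRCh38 and not on the files' build, gave transcript types, coding lengths, starts and exon overlaps; promoters are from RefSeq. Tables and figures used Python 3.11.15, pandas 2.3.3 and matplotlib 3.10.9.

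The genes and lists were chosen with earlier results of these data known. Full values were given to genes at an unadjusted p under 0.05 and to the 2 most abundant of each role. They were also given to the 10 transcripts with the smallest p and to 2 genes of each partner list. The values and fold changes of the other genes of the family were chosen after they were seen. So were those of EED, MTHFD1, MAT2A, SHMT2 and IDH1, and of PHF23-002, PHF19-001, KMT5B-003, KMT5B-201 and the WHSC1 transcripts. The alternatives were another pseudocount (0.1), no minimum or a minimum of 5 TPM, median-of-ratios scaling, quantile normalization, no trend, a replicate block and each library left out.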

Additional observations from a re-analysis of the deposited data

How the results depend on the processing

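No gene of the family passed limma with Benjamini-Hochberg adjustment under any of the 11 alternatives; over all genes 37 did with quantile normalization. With the replicate block the unadjusted limma p was under 0.05 for 4 genes of the family with higher and 5 with lower values (7 and 8 as reported), among them 2 of the 15 demethylases, KDM4A and KDM5B (8 as reported). The numbers were not shown to pair libraries: deviations of same-numbered libraries correlated at -0.03 over all genes and 0.36 over the 76. Leaving out 1 library, with the lone one assumed to vary like the other group, gave 2 to 5 higher, 4 to 7 lower, 4 to 9 role groups with such a gene (8 as reported), 8 to 14 partner genes (15 as reported) and 592 to 1118 genes with higher values over all genes (1086 as reported). It also turned the sign of the median log2 fold change of 9 of 15 role groups. Of the 66 named fold changes 10 changed sign, in each case only when a library was left out. Their log2 ranges were -0.27 to 0.12 for KDM6A, -0.25 to 0.016 for KDM2B, -0.063 to 0.40 for WHSC1, -0.24 to 0.0018 for KDM1B and -0.024 to 0.28 for KDM3B. They were -0.82 to 0.16 for JMJD6, -0.081 to 0.42 for MINA, -0.026 to 0.18 for KMT2E, -0.94 to 0.34 for SETD5 and -0.15 to 0.19 for NSDHL. The cause was not tested. With 2 libraries a group, the spread is poorly known, and depth is unknown.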

Other observations

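RefSeq promoter windows of GRCh38.p14 were matched for 65 of the 77 genes and are described here with no test. Their median CpG count was 30, against 27 for 8515 tested genes and 22 for 15843 protein-coding genes, and 92.3% of them had an observed-to-expected CpG ratio above 0.6, against 85.1% and 65.7%. The E box CACGTG, searched on both strands, was found in 18.5% of the windows, against 10.7% of those of the tested genes, and the ETS core CCGGAAG in 13.8%, against 21.4%. The TATA box TATAAA was found in 1.54%, against 5.06%. Of 214 transcripts of these genes that could be placed, 94 started inside the window of their gene.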
